A study of Mus musculus with 9 samples.

Results

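The genes described here are 5 ligands of the EGF receptor (*Areg*, *Ereg*, *Hbegf*, *Tgfa* and *Btc*), 3 receptors of the ErbB family (*Egfr*, *Erbb2* and *Erbb3*) and 2 feedback inhibitors (*Dusp6* and *Errfi1*). They were chosen by name, as the rows whose gene identifier carries these symbols in GENCODE M1, and all 10 were found among the 13643 genes listed in at least 1 of the 2 deposited tables. The data are RNA-seq of 9 libraries from AML12, a hepatocyte line of mouse origin, harvested on day 5 after lentiviral infection. The groups were a control (Ctrl, 3 libraries), *Srrm2* hairpin 1 (sh1, 3 libraries) and *Srrm2* hairpin 2 (sh2, 3 libraries). All cells were grown with fetal bovine serum, insulin, transferrin, selenium and dexamethasone. *Srrm2* encodes a scaffold protein of nuclear speckles. The labels give no genotype or passage, and nothing in them says that the libraries of a group came from separate cultures.

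AML12 cells were derived from a mouse that carried a transgene for human transforming growth factor alpha, the protein that *Tgfa* encodes. Reads of the transgene that resemble the mouse gene can be counted on *Tgfa*, and how many were was not tested. EGF receptor ligands are made as membrane-bound precursors and released by proteases of the ADAM family. They bind the receptor Egfr, which pairs with itself or with Erbb2 or Erbb3 and signals through Ras to the kinase Erk. Erk signalling induces its own inhibitors, among them the Erk phosphatase Dusp6, while Errfi1 binds the receptor's kinase domain and blocks it. In liver this pathway is known for its part in regeneration.

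Each value below is the authors' mean normalized count of a gene, pooled over the control and 1 hairpin. The table of sh1 pools control and sh1 libraries, and the table of sh2 pools control and sh2 libraries. Only these pooled means were used, so no mean has an SD, no difference below has a test, and the depth of each library is unknown. A level per kilobase is the mean normalized count divided by the length of all exons of the gene in kilobases. The effect of either hairpin against control is not reported here, since it stands only in the authors' own comparison columns, which were not used. For the same reason the depletion of *Srrm2* was not checked. Its authors' mean was 3428 in the table of sh1 and 3759 in the table of sh2. The table of sh1 lists 13424 genes and that of sh2 lists 13478, with summed means of 6144608 and 6393456.

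The ligands share an EGF-like module, a stretch with 6 cysteines that binds the receptor. The coding stretches of this module are shown for 4 of the ligands, the abundant *Tgfa* and the scarce *Areg*, *Ereg* and *Btc*, to set their sequences beside their levels. They were read 5′ to 3′ on the coding strand from the longest GENCODE M1 coding transcript and matched base for base to NCBIM37, the assembly of mm9. The module of *Hbegf*, the other abundant ligand, was not read. Capitals mark the codons of the 6 cysteines.
Tgfa: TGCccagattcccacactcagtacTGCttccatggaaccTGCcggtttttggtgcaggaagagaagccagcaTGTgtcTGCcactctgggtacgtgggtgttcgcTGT
Areg: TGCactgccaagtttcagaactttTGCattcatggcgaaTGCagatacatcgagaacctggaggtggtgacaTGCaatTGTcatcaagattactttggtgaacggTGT
Ereg: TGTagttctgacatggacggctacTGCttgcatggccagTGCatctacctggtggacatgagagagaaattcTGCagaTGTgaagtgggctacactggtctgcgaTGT
Btc: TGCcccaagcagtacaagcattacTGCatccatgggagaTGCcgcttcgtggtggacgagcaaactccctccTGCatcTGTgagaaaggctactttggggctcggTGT

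Each stretch has 108 bases, or 36 codons, and in all 4 transcripts 77 bases lie in exon 3 and the other 31 in exon 4. The stretch of *Tgfa* lies on the + strand at chr6:86213194-86213270 and chr6:86219924-86219954 of mm9. That of *Areg* lies on the + strand at chr5:91572640-91572716 and chr5:91573360-91573390, and that of *Ereg* on the + strand at chr5:91517522-91517598 and chr5:91518107-91518137. That of *Btc* lies on the - strand at chr5:91795147-91795223 and chr5:91791447-91791477. Among these 4 ligands, *Tgfa* and *Btc* had the most bases in common, 67 of 108 (62.04%), and *Tgfa* and *Ereg* the fewest, 49 of 108 (45.4%). *Areg* and *Ereg* had 58 of 108 (53.7%) in common. The stretches thus differ at many positions from ligand to ligand.

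The genes of *Ereg*, *Areg* and *Btc* are neighbours on mouse chromosome 5 of mm9, together with *Epgn*, which encodes the ligand epigen and for which no value was found in either table used here. *Ereg*, from 91503643 to 91522675 on the + strand, and *Areg*, from 91568641 to 91577458 on the + strand, are 45.97 kb apart. *Btc* is on the - strand from 91786287 to 91831939, and the 4 genes span 375 kb.

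**Figure D1:**
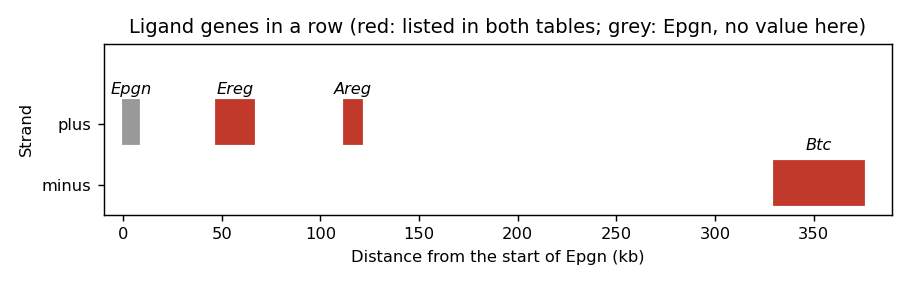
Map of the ligand genes on mouse chromosome 5 of mm9, with the distance from the start of Epgn in kb on the x axis and the strand on the y axis. Boxes span each gene, and other genes of the region are not drawn. Ereg and Areg lie side by side on the plus strand, 45.97 kb apart, and Btc on the minus strand.

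Of the ligands, *Tgfa* and *Hbegf* were abundant and the 3 genes of chromosome 5 were scarce. *Tgfa* (chromosome 6, 86145420 to 86225151, + strand) had an authors' mean of 1280 in the table of sh1 and 1339 in the table of sh2. Its level per kilobase was 340 and 356, at percentiles 94.0 and 94.0 of the listed genes. *Hbegf*, which encodes heparin-binding EGF-like growth factor, had authors' means of 414 and 454 and levels of 174 and 191 per kilobase, at percentiles 85.3 and 86.3 of the listed genes. *Tgfa* was therefore 1.95-fold and 1.86-fold above *Hbegf* per kilobase in the tables of sh1 and sh2.

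*Areg*, which encodes amphiregulin, had authors' means of 23.1 and 18.1 in the tables of sh1 and sh2, or levels of 19.2 and 15.1 per kilobase. *Ereg*, which encodes epiregulin, had authors' means of 77.7 and 49.9, or levels of 18.8 and 12.1 per kilobase. *Btc*, which encodes betacellulin, had authors' means of 25.1 and 24.9 and levels of 8.98 and 8.90 per kilobase, the lowest levels per kilobase of the 10 genes in both tables. These 3 genes stood below the median of the listed genes, which was 43.1 per kilobase in the table of sh1 and 44.8 in the table of sh2. *Tgfa* was 17.7-fold and 23.6-fold above *Areg* per kilobase, and 37.9-fold and 40.0-fold above *Btc*. Of the summed level of the 5 ligands, *Tgfa* held 60.6% and 61.0% and *Hbegf* 31.0% and 32.8%, while *Areg*, *Ereg* and *Btc* each held between 1.53% and 3.43%. An unknown part of the *Tgfa* count may be reads of the transgene, so its folds and shares hold for the count as deposited.

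Among the receptors *Egfr* was the highest, and it had the highest level per kilobase of all 10 genes. *Egfr* (chromosome 11, 16652206 to 16818161, + strand) had authors' means of 6786 and 7534 in the tables of sh1 and sh2, and levels of 599 and 665 per kilobase, at percentiles 97.0 and 97.3. *Erbb3* (chromosome 10, 128004579 to 128026708, - strand), a receptor with little kinase activity of its own that binds neuregulins, had authors' means of 764 and 844, or levels of 127 and 140 per kilobase. *Erbb2* (chromosome 11, 98273784 to 98299030, + strand), a receptor with no known ligand that serves as a partner, had authors' means of 446 and 472, or levels of 85.7 and 90.5 per kilobase. *Egfr* was thus 4.72-fold and 4.74-fold above *Erbb3* per kilobase, and 6.99-fold and 7.35-fold above *Erbb2*. It held 73.8% and 74.2% of the summed level of the 3 receptors, against 15.6% and 15.7% for *Erbb3* and 10.6% and 10.1% for *Erbb2*.

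Both feedback genes stood next below *Egfr* in level. *Dusp6* (chromosome 10, 98725865 to 98730122, + strand) had authors' means of 1302 and 1376, or levels of 466 and 492 per kilobase. *Errfi1* (chromosome 4, 150228028 to 150243001, + strand) had authors' means of 1678 in the table of sh1 and 1450 in the table of sh2, or levels of 469 and 405 per kilobase. The 2 genes changed places between the tables, since the ratio of *Errfi1* to *Dusp6* per kilobase was 1.01 in the table of sh1 and 0.82 in that of sh2. Without a division by length *Errfi1* stood above *Dusp6* in both tables. The order of the other 8 genes was the same in both tables. From the top it was *Egfr*, *Tgfa*, *Hbegf*, *Erbb3*, *Erbb2*, *Areg*, *Ereg* and *Btc*, with both feedback genes between *Egfr* and *Tgfa*. Since no spread between libraries was used, neighbours in this order cannot be said to differ, and *Areg* and *Ereg* were only 1.02-fold apart in the table of sh1. Without a division by length, *Hbegf* stood below *Erbb3* and *Erbb2*, and *Areg* below *Ereg* and *Btc*, in both tables. The spans of *Egfr*, *Erbb2* and *Errfi1* overlap other genes on the opposite strand, and that of *Btc* overlaps the pseudogene *Gm15710* on its own strand, so reads in the overlap of *Btc* cannot be told apart by strand. The libraries were strand-specific, but the strand setting of the counting is not given in the sources used here.

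**Figure D2:**
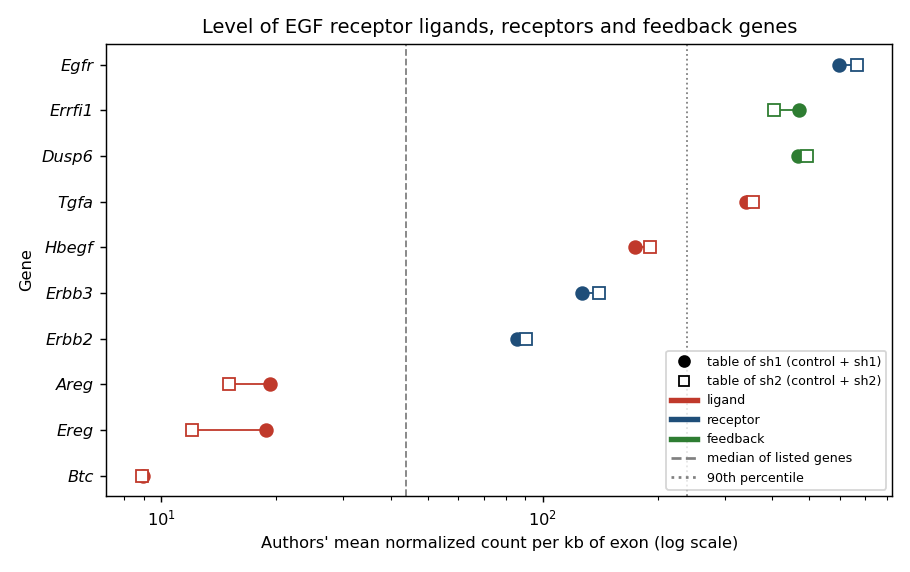
Level of each of the 10 genes, with the authors' mean normalized count per kilobase of exon on a log x axis and the genes on the y axis. Filled circles are the table of sh1 and open squares that of sh2, colours mark ligands, receptors and feedback genes, and grey lines mark the median and the 90th percentile of the listed genes. Egfr, Errfi1, Dusp6 and Tgfa stand above the 90th percentile, and Areg, Ereg and Btc below the median.

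The 2 pooled means of a gene were then set side by side to see where the tables differ. The tables were normalized separately, so the log2 ratio of the table of sh1 to that of sh2 was centred on its median, -0.07 before centring, over the 11451 genes whose mean reached 10 in both. The control libraries enter both means. If the same 3 control libraries were used in each, the pooled ratio lies closer to 1 than the ratio of the sh1 libraries to the sh2 libraries does. The ratio says nothing of either hairpin against control.

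The mark for a difference was a centred ratio more than 25% above 1, or below 1 by the same factor. Of the 10 genes, 2 were past this mark, both of them ligands of chromosome 5 and both higher in the table of sh1. Of all 11451 genes, 8.29% were past it, 4.41% higher and 3.88% lower in the table of sh1. *Ereg*, with means of 77.7 and 49.9, had a centred ratio of 1.64, or 0.71 on the log2 scale. *Areg*, with means of 23.1 and 18.1, had a centred ratio of 1.34, or 0.42 on the log2 scale. *Btc*, of the same stretch of chromosome, with means of 25.1 and 24.9, had a centred log2 ratio of 0.08. Both genes past the mark were among the 3 with a mean between 10 and 100. In that range 16.4% of 3533 genes were past it, and the 5th and 95th percentiles of the log2 ratio were -0.43 and 0.39. Of the 7 genes with a mean of 100 or more 0 were past it, against 4.65% of 7918 genes.

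The 8 genes within the mark had centred log2 ratios from -0.08 to 0.28. The highest of these was that of *Errfi1*, at a ratio of 1.22, above the 95th percentile of 0.26 among genes with a mean of 100 or more. *Dusp6*, the other feedback gene, had a centred log2 ratio of -0.0079. *Tgfa* had 0.0071 and *Hbegf* -0.06. The 3 receptors had values of -0.08 for *Egfr*, -0.07 for *Erbb3* and -0.0075 for *Erbb2*, all within the middle of the distribution, whose quartiles were -0.08 and 0.09 for genes with a mean of 100 or more. The median over the 10 genes was -0.0002, against 0 over all genes by construction. The receptors and the 2 abundant ligands thus had nearly the same pooled level in both tables, while *Ereg* and *Areg* were higher in the table of sh1.

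**Figure D3:**
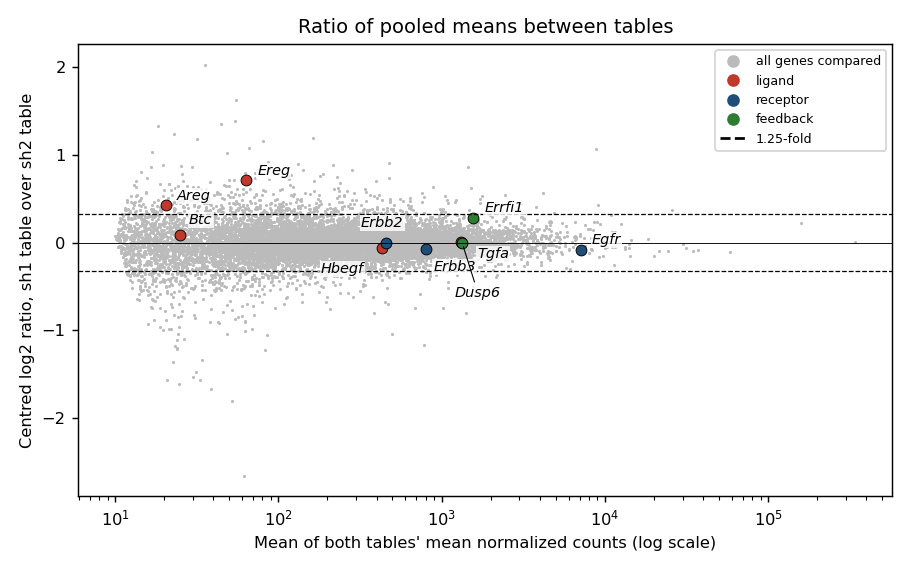
Centred log2 ratio of the table of sh1 over that of sh2 on the y axis, against the mean of both tables' mean normalized counts on a log x axis, for 11451 genes (grey) and the 10 genes named (coloured by role). Dashed lines mark a ratio 25% above 1 and its inverse. Ereg and Areg lie above the upper line, Errfi1 just under it and the other 7 near 0, where the points of Tgfa and Dusp6 overlap.

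Other genes of the pathway were taken from 6 lists with 84 genes, of which 71 reached a mean of 10 in both tables. Of these 71 genes, 6 (8.45%) were past the mark, 5 higher and 1 lower in the table of sh1, against 8.29% of all genes. These shares mix genes of unlike abundance. Most of the 71 genes had a mean of 100 or more, where 4.65% of all genes were past the mark, against 16.4% at means of 10 to 100. Of the 6 genes, *Gab1*, *Dusp9* and *Fosb* had means under 100. Of 6 further ligands and the receptor *Erbb4*, 4 genes are in both tables. *Nrg1*, which encodes neuregulin, a ligand of Erbb3, was the highest of them with levels of 127 and 130 per kilobase, close to those of *Erbb3*. *Nrg4* had levels of 6.58 and 6.80, and *Egf* itself 2.38 and 2.23 per kilobase, below all 5 ligands described above.

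Of 9 genes that act in ligand release, all were in both tables. The metalloproteases *Adam9* and *Adam10* were the highest, at 640 and 615 and at 275 and 273 per kilobase in the tables of sh1 and sh2. *Rhbdf2*, which helps *Adam17* to reach the cell surface, followed with 90.4 and 94.4. *Adam17* itself was at 47.3 and 49.6 per kilobase. *Adam12* was the gene past the mark, with authors' means of 486 and 391 and a centred ratio of 1.31. Of 16 adaptors and genes of receptor turnover, the phosphatase *Ptpn11* was the highest, at 268 and 270 per kilobase, followed by *Hgs* (187 and 195) and *Usp8* (183 and 189), which act in endosomal sorting. *Gab1*, an adaptor, was 1 of 15 compared and was just past the mark, with authors' means of 54.8 in the table of sh1 and 45.95 in that of sh2 and a centred log2 ratio of 0.33. Scaled by the summed means its log2 ratio was 0.31, no longer past the mark.

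In the cascade from Ras to Erk all 14 genes were in both tables and 0 were past the mark, the median log2 ratio being 0.02. All 14 had means of 100 or more, where only 4.65% of all genes were past the mark, so 0 of 14 does not set the cascade apart. *Mapk3*, which encodes the kinase Erk1, was at 478 and 541 per kilobase, *Rras* at 456 and 466 and *Map2k1* at 183 and 178. Of 17 other phosphatases and feedback genes, 15 were in both tables. *Dusp1* was the highest, at 299 and 284 per kilobase, with *Dusp16* at 185 and 223 and *Dusp5* at 182 and 158. *Spry2*, which encodes a Sprouty inhibitor of receptor signalling, was just past the mark with means of 211 and 177 and a centred log2 ratio of 0.33, which fell short of it at 0.31 when scaled by the summed means. *Dusp9* was past it with means of 20.9 and 17.1 and a centred ratio of 1.29. The other 13 were within it.

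Of 21 genes that Erk signalling is known to induce, 17 reached a mean of 10 in both tables. *Ccnd1*, which encodes cyclin D1, was by far the highest, at 3421 and 3108 per kilobase, followed by *Klf6* (614 and 627) and *Plaur* (501 and 480). Past the mark were 2 genes of the same Fos family of transcription factors, in opposite directions. *Fosl1* had authors' means of 158 and 117 and a centred ratio of 1.42. *Fosb* had authors' means of 51.1 and 88.4 and a centred ratio of 0.61. The median log2 ratio of the 17 genes was 0.03.

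**Figure D4:**
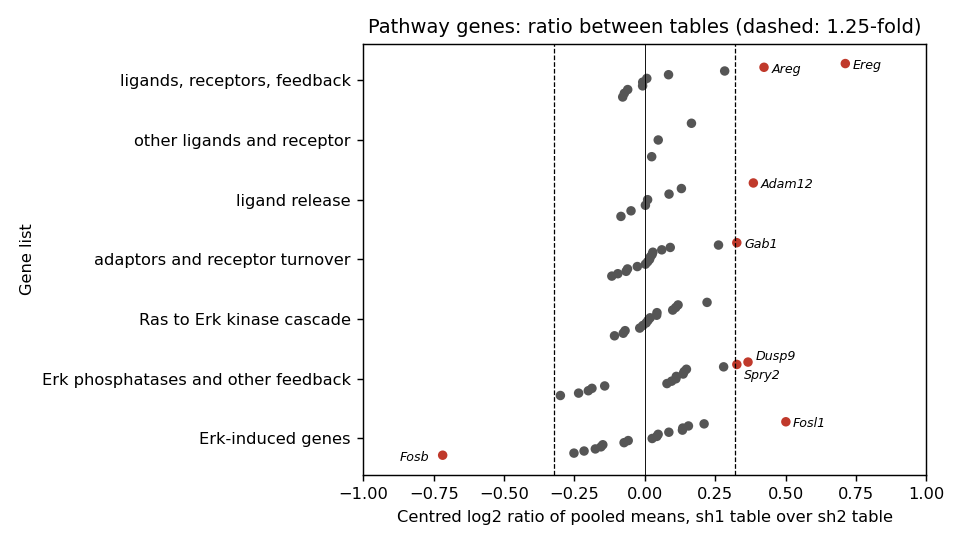
Centred log2 ratio of pooled means, table of sh1 over that of sh2, on the x axis for genes whose mean reached 10 in both tables, by gene list on the y axis. Each point is a gene, red points are past the dashed lines at a ratio 25% above 1 and its inverse, and height within a list only separates the points. Ereg has the highest ratio and Fosb the lowest. The Ras to Erk cascade has 0 of 14 genes past the lines, as against 4.65% of all genes with a mean of 100 or more.

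The label of a hepatocyte line was checked against markers. All 13 hepatocyte markers were in both tables, with *Krt18* (7034 and 6395 per kilobase), *Krt8* (4594 and 4343) and *Ttr* (2049 and 2165) the highest. *Krt8* and *Krt18* are also keratins of bile duct cells. *Alb* was at 1053 and 888 per kilobase and *Hnf4a* at 298 and 324. Lower members of the list were *Apoa1* at 31.9 and 31.5, below the median of the listed genes, and *Cebpa* at 50.3 and 57.0 per kilobase. These genes were named after their values were seen. *Fgb* was at 74.1 and 51.3 per kilobase. Of the hepatocyte markers, *Fgb* had a centred ratio of 1.52 and *Serpina1a*, whose near-identical family members can lose or split reads, of 0.78. Of 6 markers of bile duct cells, 4 were in both tables, and *Spp1* (2448 and 2650), *Krt19* (1537 and 1484) and *Krt7* (192 and 229) were the highest. The biliary markers *Epcam* and *Prom1* were in neither table. Some biliary markers, not all of those listed, were thus present beside those of hepatocytes. Of 7 macrophage and leukocyte markers 4 were in both tables, summed to 338 and 365 per kilobase, nearly all of it *Cd14* (312 and 335), with *Cd68* at 20.0 and 23.7 and *Csf1r* at 5.01 and 5.21. Of 5 endothelial markers 0 were among the genes listed, and of 6 stellate and fibroblast markers *Des* (2.14 and 1.51) and *Col1a1* (0.59 and 0.61) were. The part of any other cell type in the levels above was not tested.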

How the data were processed

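RNA-seq of AML12 cells was described in 2 deposited tables. Per the labels and the methods of the study, the authors aligned trimmed reads (TopHat2, mm9), retained concordant pairs with a unique position, made gene counts with HTSeq on GENCODE M1 and normalized them in DESeq2 1.8.2. The column used is the authors' mean normalized count, a signal deposited as 1 pooled value per gene and table. The labels of 2 control libraries name tables of further hairpins, so that all 3 entered the table of sh2 is not settled. The 5 other columns of each table hold the authors' own comparison (log2 fold change, its error, a statistic, a p-value and an adjusted p-value) and were not used. The planned design therefore had no test.

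Gene identifiers all matched GENCODE M1 (37310 genes). Means were divided by the union of exons. Ratios between tables were centred on the median of genes of at least 10, and a ratio 25% above 1, or its inverse, was set as the mark. The centring was tested on simulated data with the same controls in both tables and genes changed only upward, with hairpin 1. Other settings were not simulated. Members and lists were chosen with earlier results of these data known. Beside the members, the rule was to name the 3 genes of the highest level in each list and every gene past the mark. Values are also given outside this rule for *Srrm2*, *Adam17*, *Alb*, *Hnf4a*, *Apoa1*, *Cebpa*, *Il11* and *Nrg2*. Alternatives were other scalings, folds and lengths. Depth per library is unknown, and pooled means give no precision. Python 3.11.15, numpy 2.4.6, pandas 2.3.3 and matplotlib 3.10.9 were used.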

Additional observations from a re-analysis of the deposited data

How the results depend on the processing

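Scaling by the summed means, or centring on genes of at least 100 or on all genes, shifts the log2 ratios of all genes by the same amount. This shift was at most 0.02, and 2 of the 10 genes, *Areg* and *Ereg*, were past the mark each time. With the mark at 1.1-fold 3 were past it, and at 1.5-fold 1. Of the other pathway genes, 6 were past the mark as set, 24 past 1.1-fold and 1 past 1.5-fold. Scaling by the summed means left 4 of them, without *Gab1* and *Spry2*. Without a division by length, the share of *Tgfa* among the ligands was 70.3% in the table of sh1 and 71.0% in that of sh2, and 14 of 20 ranks changed. The longest coding transcript as the length changed 0 of 20. For all 5 ligands, *Erbb3* and *Dusp6* both lengths are the same, so this alternative could not change the share of *Tgfa* and says little of the ranks. Levels of the other pathway genes were not recomputed with it, though their lengths can differ, as for *Nrg4* (6079 and 2095 bases). No library could be left out, since no value per library was used. No paired analysis was possible because the result comes from no test and the pooled columns carry no replicate numbers. The depth behind each mean is unknown, and the ratios of *Areg* and *Ereg* rest on means under 100.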

Other observations

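*Il11*, which encodes the cytokine interleukin 11 and is on the list of Erk-induced genes, had authors' means of 14.5 in the table of sh1 and 7.73 in the table of sh2. It was left out of the comparison because the latter is under 10. Its centred log2 ratio of 0.98 is above that of *Ereg*. *Nrg2*, which encodes a neuregulin, was left out for the same reason and lay in the other direction, with authors' means of 2.81 and 5.46 and a centred log2 ratio of -0.89. Both were named after their values were seen.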
